A study of Homo sapiens with 6 samples.

Results

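Ephrins, Eph receptors, semaphorins, plexins and neuropilins make up the guidance genes described here. They were chosen by name: every probe set with a single annotated symbol of the EFNA, EFNB, EPHA, EPHB, SEMA, PLXNA to PLXND or NRP series was taken, and a gene with several probe sets was read from the one with the highest mean. This gave 51 genes of 18417 in all, from 54 probe sets: 8 ephrins, 13 Eph receptors, 19 semaphorins (7 secreted and 12 membrane-bound), 9 plexins and 2 neuropilins. EPHB2 and SEMA4C were not analysed here. Expression was measured with Affymetrix whole-transcript arrays in A673 and SK-N-MC, which are established Ewing sarcoma lines; this tumour arises in bone or soft tissue and is driven by the fusion protein EWSR1::FLI1 or a close relative of it. Each line was treated with a control siRNA, with an siRNA against DKK2 (siDKK2), which encodes a secreted modulator of Wnt signalling, or with an siRNA against ITM2A (siITM2A), which encodes a membrane protein. There was 1 array for each line and siRNA, 6 in all, and all cells were kept in the same serum-containing medium. Every array thus came from siRNA-treated cells, the tumour type is represented by 2 lines, and by its label number the ITM2A siRNA was 7 for A673 but 1 for SK-N-MC. No label mentions a repeat of any condition in a separate culture, so the p-values below measure only how evenly a difference ran across the siRNAs or across the lines.

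Ephrins are ligands held on the surface of the sending cell, the A type by a lipid anchor and the B type by a transmembrane segment, and they bind Eph receptor tyrosine kinases on the neighbouring cell, often with signals running into both cells. Semaphorins are secreted or membrane-bound cues that act through plexins. The secreted class mostly needs a neuropilin beside the plexin. Both systems steer axons, blood vessels and neural crest cells, and in tumours they are studied for their part in cell migration, invasion and spread; EPHA2 is the member with the best-known record in Ewing sarcoma.

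Values are RMA (robust multi-array average) expression values on the log2 scale, so that a difference of 1 is a doubling. Array medians over all probe sets lay between 3.35 and 3.44. Each target had its lowest value in each line with its own siRNA: DKK2 stood at 8.64 with control siRNA and 7.73 with siDKK2 in A673 and at 8.01 and 6.50 in SK-N-MC, and ITM2A at 8.52 with control siRNA and 5.03 with siITM2A in A673 and at 9.48 and 6.10 in SK-N-MC. ITM2A passed the threshold used below (adjusted p = 0.000442) and DKK2 did not (adjusted p = 0.209). Of 11 measured Ewing sarcoma markers, 10 were at or above the array median on every array, GLI1 being the exception. Endothelial, immune, epithelial and neuronal lists had medians of 2.40 to 3.42 on every array. PTPRC, PECAM1 and EPCAM, which define blood, endothelial and epithelial cells, stayed between 1.90 and 2.73. Other genes of these lists read higher: the keratins KRT18 (9.21 to 9.76) and KRT8 (4.71 to 5.86) on all arrays, the macrophage marker CD68 at 5.11 to 6.41 in A673 against 4.06 to 4.60, and the endothelial EMCN at 2.26 to 2.36 against 4.34 to 4.68. CD68 was called higher in A673 (1 of 7 immune markers), EMCN lower (1 of 8 endothelial markers) and the neuronal SYP higher (1 of 5), while 0 of 6 epithelial markers were called. The medians of the fibroblast and Ewing lists also moved with the line. The fibroblast median lay between 3.26 and 3.68 on the A673 arrays, and between 4.75 and 5.23 on those of SK-N-MC, with 1 of 6 members called higher and 3 called lower in A673. The Ewing median lay between 5.88 and 6.63, and between 6.78 and 7.01, with 3 of 11 called higher and 4 lower. Between the lines, 28.5% of all genes were called, against 63.6% of the Ewing list and 66.7% of the fibroblast list. In the immune, endothelial and neuronal lists it was 14.3%, 12.5% and 20%. The part of these lists in the line differences below was not tested.

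The lines differed in many guidance genes, in both directions. Between A673 and SK-N-MC, 22 of 51 guidance genes (43.1%) passed an adjusted p under 0.05 (limma, siRNA as a block, Benjamini-Hochberg adjustment over all genes), where 28.5% of all genes did. Of these, 9 were higher in A673 (17.6%, against 13.8% of all genes): the receptor EPHA2, the semaphorins SEMA3A, SEMA3D, SEMA4B, SEMA4G and SEMA6B, the plexin PLXNA1, and both neuropilins. The 13 lower ones (25.5%, against 14.7%) were the ephrins EFNA1, EFNA3 and EFNB1, the receptors EPHA3, EPHA4, EPHA7, EPHB3 and EPHB4, the semaphorins SEMA3C, SEMA5B and SEMA6A, and the plexins PLXNA3 and PLXND1. At an unadjusted p under 0.05, 23 members (45.1%) passed, against 37% of all genes.

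By size alone, 8 members (15.7%) were at least 2-fold apart in a constant direction under all 3 siRNAs, against 5.22% of all genes. EPHA2, SEMA3A and SEMA3D were the higher ones (5.88%, against 3.25%), and EPHA7, EPHB3, PLXND1, SEMA3C and SEMA5B the lower ones (9.8%, against 1.97%). At 1.5-fold the count was 13 (25.5%, against 11.9%). The median difference over the members was -0.02, equal to the median of -0.02 over all genes, while the median size of the difference, without its sign, was 0.24 over the members and 0.18 over all genes. The 3 A673 values all lay above the 3 SK-N-MC values for 9 members (17.6%, against 18.1% of all genes) and all below for 13 (25.5%, against 20.8%). A permutation test over 3 arrays against 3 that ignores the pairing by siRNA cannot go below an exact two-sided p of 0.1. Keeping the pairs leaves fewer arrangements, so calls rest on the fit across all genes. In extracts of whole cultures a lower value may mean fewer cells that express a gene or less RNA per cell, and these cannot be told apart.

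**Figure D1:**
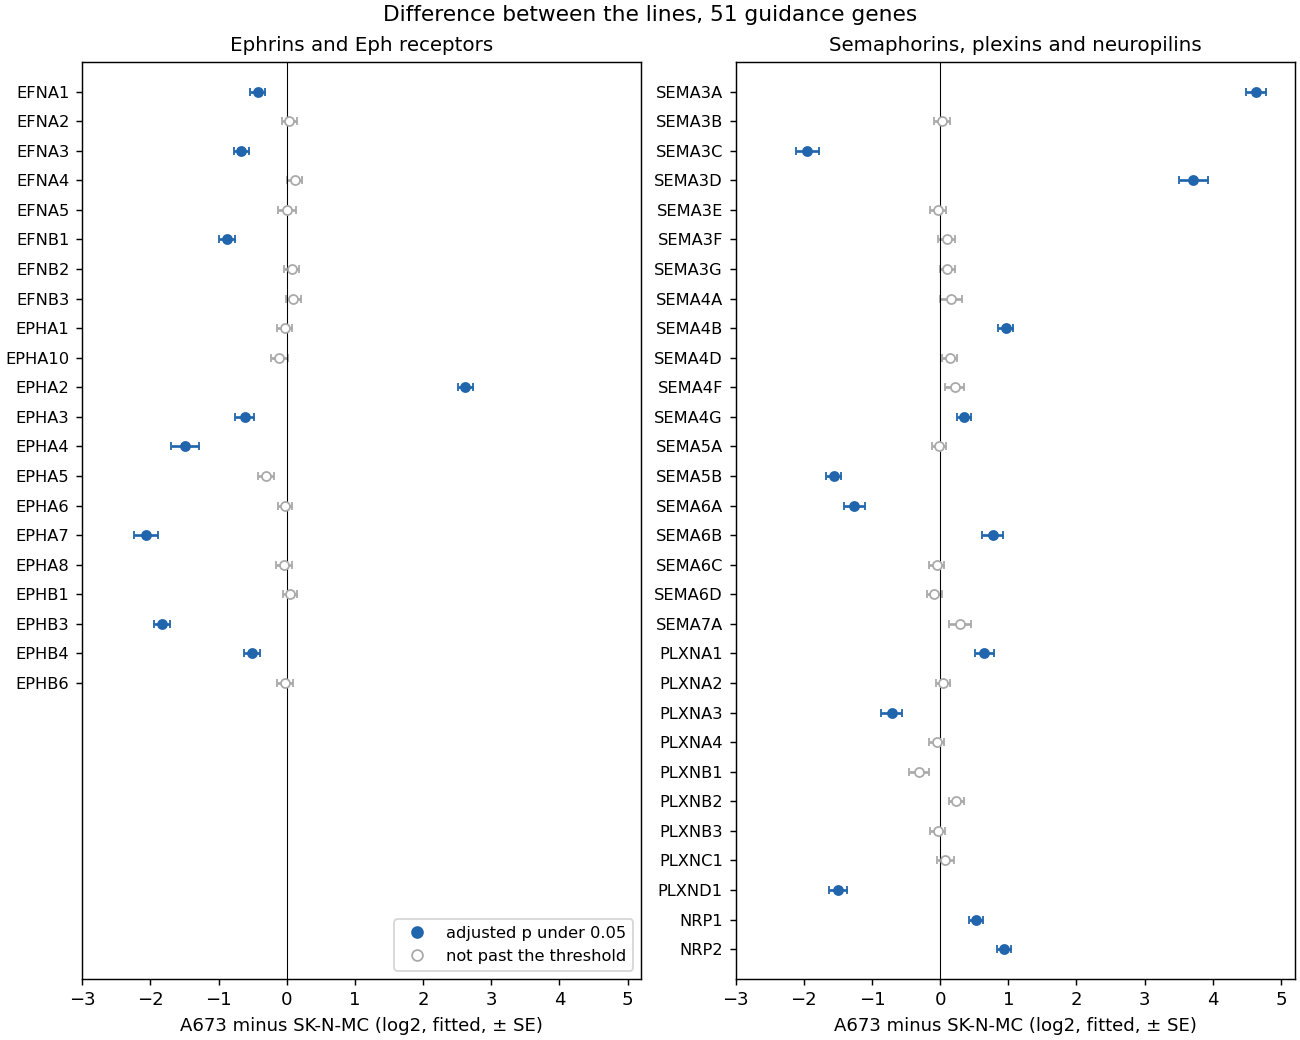
Fitted difference between A673 and SK-N-MC (log2, A673 minus SK-N-MC) with its standard error for each of the 51 guidance genes, ephrins and Eph receptors on the left and semaphorins, plexins and neuropilins on the right; filled points passed an adjusted p under 0.05. The filled points run from -2.06 for EPHA7 to 4.63 for SEMA3A, and EPHA2 is the 1 filled point to the right of 0 in the left panel.

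Promoter sequence is a feature that the choice by name did not use. It is shown for the 4 of the 8 genes past 2-fold whose promoter has a single listed start in RefSeq (GRCh38.p14), as the 250 bases before that start, 5′ to 3′ on the gene's strand. These are EPHA2 at chr1:16156070-16156319 on the minus strand, EPHB3 at chr3:184561535-184561784 on the plus strand, PLXND1 at chr3:129606677-129606926 on the minus strand, and SEMA3D at chr7:85187057-85187306 on the minus strand. Capitals mark CGCG, a motif of CpG-rich promoters.
EPHA2: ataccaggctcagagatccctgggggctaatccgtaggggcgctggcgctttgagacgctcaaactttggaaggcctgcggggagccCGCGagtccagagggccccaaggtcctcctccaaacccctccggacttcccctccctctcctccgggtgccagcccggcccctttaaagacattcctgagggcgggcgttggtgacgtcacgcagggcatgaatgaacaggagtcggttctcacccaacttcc
EPHB3: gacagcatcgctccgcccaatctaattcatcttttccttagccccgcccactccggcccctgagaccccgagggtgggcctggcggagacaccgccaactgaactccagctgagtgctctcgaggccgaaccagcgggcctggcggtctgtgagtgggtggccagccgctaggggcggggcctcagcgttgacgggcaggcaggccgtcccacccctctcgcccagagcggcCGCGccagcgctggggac
PLXND1: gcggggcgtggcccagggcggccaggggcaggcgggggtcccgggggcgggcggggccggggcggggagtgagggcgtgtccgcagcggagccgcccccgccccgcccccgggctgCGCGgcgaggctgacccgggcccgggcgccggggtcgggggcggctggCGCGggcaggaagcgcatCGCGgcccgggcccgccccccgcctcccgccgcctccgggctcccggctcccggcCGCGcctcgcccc
SEMA3D: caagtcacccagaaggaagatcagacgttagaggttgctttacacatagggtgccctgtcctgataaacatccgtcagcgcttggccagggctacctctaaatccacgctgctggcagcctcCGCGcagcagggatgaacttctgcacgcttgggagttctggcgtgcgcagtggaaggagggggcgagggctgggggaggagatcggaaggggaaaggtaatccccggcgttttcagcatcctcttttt

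These 4 promoters differ widely in base composition, with GC contents of 63.2% for EPHA2, 70.0% for EPHB3, 88.8% for PLXND1 and 57.6% for SEMA3D, and CGCG occurs 4 times before PLXND1 and 1 time before each of the others. Over the longer window of 250 bases before to 50 after the start, 71 promoters of 45 member genes were listed. Their median GC content was 64.3%, against 58.7% over 35116 promoters of all genes, and 64.8% of them held CGCG, against 49.9%. The motif GGAAGGAA, a short form of the GGAA repeat that the Ewing sarcoma fusion protein binds, was searched on both strands. It was in 2 of the 71 member promoters (2.82%), those of EFNA4 and PLXNB1, against 3.67% of all promoters, and in 0 of the 4 printed. CGCG reads the same on both strands, and a match of it can share at most 1 end base with GGAAGGAA. A match here is a description of the letters in these windows, and distant elements were not searched.

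Of the 8 ephrin ligands, 0 were called higher in A673, against 13.8% of all genes, and 3 lower, against 14.7%. The lower ones were 2 of 5 ephrin-A genes and 1 of 3 ephrin-B genes. EFNB1, a transmembrane ephrin, stood at 5.34, 6.04 and 6.11 in A673 (control, siDKK2 and siITM2A, the order used throughout) and at 6.46, 6.80 and 6.88 in SK-N-MC. All A673 values lay below all SK-N-MC values, and in each line the control array had the lowest value. The fitted difference was -0.88 ± 0.12 (SE, 3 pairs of arrays; adjusted p = 0.000602), a 1.84-fold lower level in A673. EFNA3 differed by -0.67 ± 0.11 (adjusted p = 0.00243), with means of 4.09 ± 0.10 for A673 and 4.76 ± 0.11 for SK-N-MC (SD over the siRNAs, n = 3 arrays). EFNA1 differed by -0.43 ± 0.11 (adjusted p = 0.0189), with 4.40 to 4.61 and 4.88 to 5.07. The EFNA1 call was lost without either control array (adjusted p = 0.0714) and without either siITM2A array (adjusted p = 0.12). EFNA4, EFNA3 and EFNA1 follow each other on chromosome 1 in the order of coding genes, and EFNA4, beside EFNA3, differed by 0.12 ± 0.11 without passing. EFNA2 (0.04 ± 0.11), EFNA5 (0.01 ± 0.14), EFNB2 (0.07 ± 0.11) and EFNB3 (0.10 ± 0.11) did not pass either. EFNB2, the arterial ephrin of the vascular system, read 2.03 to 2.40 on all 6 arrays.

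Among the Eph receptors, EPHA2 stood higher in A673 and 5 others stood lower (of all genes, 13.8% were called higher and 14.7% lower). EPHA2, a receptor of A-type ephrins that is often raised in carcinomas, read 7.31, 6.97 and 7.49 in A673 and 4.78, 4.18 and 4.96 in SK-N-MC. The lowest A673 value was thus well above the highest SK-N-MC value, and the siDKK2 array was the lowest in each line. The difference was 2.62 ± 0.11, or 6.14-fold (adjusted p = 1.23e-06).

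EPHA7, which binds A-type ephrins and acts in the patterning of the nervous system, went the other way, with 4.22, 4.13 and 4.03 in A673 and 6.49, 5.63 and 6.45 in SK-N-MC. Its SK-N-MC value with siDKK2 was the lowest of that line and still above all A673 values, and the difference was -2.06 ± 0.17 (adjusted p = 5.15e-05). EPHB3, a receptor of B-type ephrins, read 4.68, 4.77 and 4.72 in A673 and 6.60, 6.37 and 6.67 in SK-N-MC. Its A673 values varied little over the 3 siRNAs (SD 0.05, n = 3 arrays), and the lines were 3.54-fold apart (-1.82 ± 0.12, adjusted p = 1.11e-05). EPHA4, a receptor that accepts both ephrin types, read 5.61, 5.18 and 5.28 in A673 and 6.51, 7.31 and 6.72 in SK-N-MC. The groups did not overlap, but the control pair was closer than the siDKK2 pair, and the fit gave -1.49 ± 0.20 (adjusted p = 0.0007).

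EPHA3 and EPHB4 were lower by smaller amounts. EPHA3, another receptor of A-type ephrins, read 7.11 to 7.29 in A673 and 7.45 to 8.16 in SK-N-MC (-0.62 ± 0.14, adjusted p = 0.00923). EPHB4, the partner of EFNB2 in veins, read 6.34 to 6.70 and 6.95 to 7.06 (-0.51 ± 0.12, adjusted p = 0.0103); its call was lost without either siITM2A array (adjusted p = 0.0842). EPHA5 differed by -0.30 ± 0.12 and missed the threshold (adjusted p = 0.0884). The other 6 receptors, EPHA1, EPHA6, EPHA8, EPHA10, EPHB1 and EPHB6, differed by -0.11 to 0.05. EPHB6 is one of the Eph proteins without kinase activity. By type, 1 of 9 EphA receptors was higher and 3 lower, and of 4 EphB receptors 0 were higher and 2 lower. Of all genes, 13.8% were higher and 14.7% lower.

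**Figure D2:**
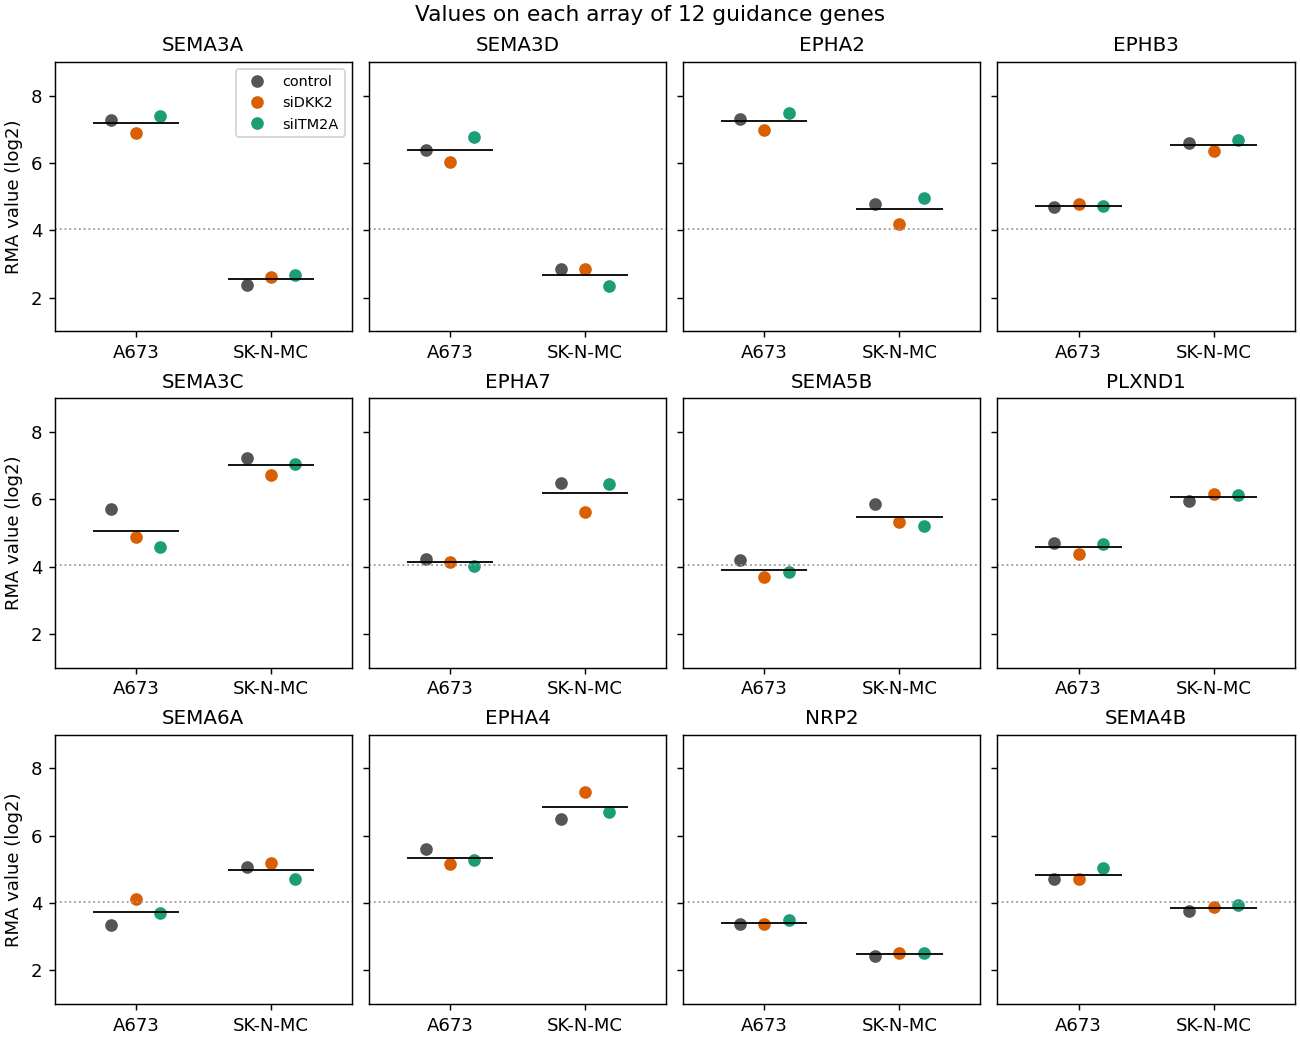
RMA values (log2) on each array for the 12 guidance genes with the largest difference under all 3 siRNAs, by line and coloured by siRNA; bars are the means of the 3 arrays of a line and the dotted line is the median over all genes, 4.04. The 2 lines do not overlap in any of the 12 panels, which is largely built in, since the genes were chosen by such differences. Of all genes, 18.1% had all A673 values above and 20.8% all below those of SK-N-MC. SEMA3A and SEMA3D are at 2.35 to 2.86 on all SK-N-MC arrays.

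Of the 7 secreted class 3 semaphorins, 2 were far higher in A673 and 1 was lower, where 13.8% of all genes were called higher and 14.7% lower. SEMA3A, the axon-repelling founder of the class, which acts through NRP1 and class A plexins, read 7.29, 6.88 and 7.40 in A673 and 2.37, 2.62 and 2.68 in SK-N-MC. No array of either line came near the other line, and the deposited values were 24.8-fold apart (4.63 ± 0.14, adjusted p = 2.29e-07). Background was not measured, so whether the SK-N-MC values of SEMA3A and SEMA3D lie above it is not known, and their folds may understate the difference. SEMA3D, a cue for axons and for the growth of the heart and its vessels, read 6.39, 6.02 and 6.77 in A673 and 2.86, 2.84 and 2.35 in SK-N-MC. Its deposited values were 13.1-fold higher in A673 (3.71 ± 0.21, adjusted p = 5.52e-06). SEMA3E, SEMA3A and SEMA3D are consecutive coding genes on chromosome 7, and SEMA3E, which binds PLXND1, read 1.98 to 2.41 on all arrays and did not differ past the threshold (-0.03 ± 0.11).

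SEMA3C, which acts through neuropilins and PLXND1 in the outflow tract of the heart, was the secreted semaphorin with the opposite direction. It read 5.72, 4.88 and 4.58 in A673 and 7.24, 6.73 and 7.06 in SK-N-MC. The control array was the highest in each line, and the difference was -1.95 ± 0.17, or 3.86-fold (adjusted p = 6.62e-05). Its chromosome 7 locus is not next to the SEMA3A and SEMA3D pair. SEMA3B (0.03 ± 0.12), SEMA3F (0.10 ± 0.12) and SEMA3G (0.11 ± 0.11) did not pass.

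Of the 12 membrane-bound semaphorins 3 were higher and 2 lower in A673, against 13.8% and 14.7% of all genes. SEMA5B, a transmembrane semaphorin with thrombospondin repeats, read 4.20, 3.69 and 3.83 in A673 and 5.86, 5.33 and 5.22 in SK-N-MC. The control array was the highest in each line, and the difference was -1.56 ± 0.11 (adjusted p = 1.98e-05). SEMA6A, a ligand of class A plexins that can also act as a receptor, read 3.36, 4.12 and 3.71 against 5.08, 5.19 and 4.70, a difference of -1.26 ± 0.15 (adjusted p = 0.000366). SEMA4B, a class 4 semaphorin, lay the other way, at 4.71, 4.72 and 5.04 in A673 and 3.76, 3.89 and 3.93 in SK-N-MC. That is 1.95-fold higher in A673 (0.96 ± 0.11, adjusted p = 0.000266).

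SEMA6B, another class 6 semaphorin, was higher in A673 by 0.77 ± 0.15 (adjusted p = 0.00523), with 4.69 to 4.84 in A673 and 3.49 to 4.28 in SK-N-MC. SEMA4G differed by 0.36 ± 0.10 (adjusted p = 0.0343), a call that was lost without any 1 of the 6 arrays (adjusted p = 0.0594 to 0.16), with arrays centred on their medians (0.0591), with an intensity trend (0.0707) and without the siRNA block (0.122). SEMA7A, the member of the class with a lipid anchor, differed by 0.29 ± 0.16 and missed the threshold (adjusted p = 0.234); it passed without either siDKK2 array. SEMA4A, SEMA4D, SEMA4F, SEMA5A, SEMA6C and SEMA6D differed by -0.08 to 0.21.

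Of the 9 plexins 1 was higher and 2 were lower in A673, against 13.8% and 14.7% of all genes. PLXND1, a plexin prominent in vessel endothelium, read 4.70, 4.37 and 4.67 in A673 and 5.94, 6.17 and 6.13 in SK-N-MC, a 2.83-fold lower level in A673 (-1.50 ± 0.13, adjusted p = 5.99e-05). PLXNA1 read 5.74 to 5.87 in A673 and 4.92 to 5.47 in SK-N-MC (0.65 ± 0.14, adjusted p = 0.00873), and PLXNA3 4.17 to 4.50 and 4.82 to 5.32 (-0.71 ± 0.16, adjusted p = 0.00894). Both are class A plexins that take neuropilin-bound semaphorins, and their calls, in opposite directions, were each lost without either siITM2A array (adjusted p = 0.0758 and 0.0617). PLXNB1 (-0.32 ± 0.15, adjusted p = 0.161) and PLXNB2 (0.24 ± 0.11, adjusted p = 0.14), receptors of class 4 semaphorins, did not pass. PLXNA2, PLXNA4, PLXNB3 and PLXNC1 differed by -0.05 to 0.08.

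Both neuropilins, the co-receptors of class 3 semaphorins and of vascular endothelial growth factor, were higher in A673, as were 13.8% of all genes. NRP2 read 3.38, 3.37 and 3.49 in A673 and 2.41, 2.52 and 2.51 in SK-N-MC (0.93 ± 0.10, adjusted p = 0.000243). The other NRP2 probe set read 2.20, 2.49 and 2.32 against 2.17, 1.92 and 2.16, and the mean of both gave 0.59, still past the threshold. NRP1 read 3.18, 3.52 and 3.20 in A673 and 2.56, 3.07 and 2.70 in SK-N-MC, with the siDKK2 array highest in each line (0.52 ± 0.11, adjusted p = 0.00579). All these neuropilin values lie below 4.04, the median level over all genes, as do the means of 27 of the 51 members; this mark is no detection limit, and background was not measured.

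**Figure D3:**
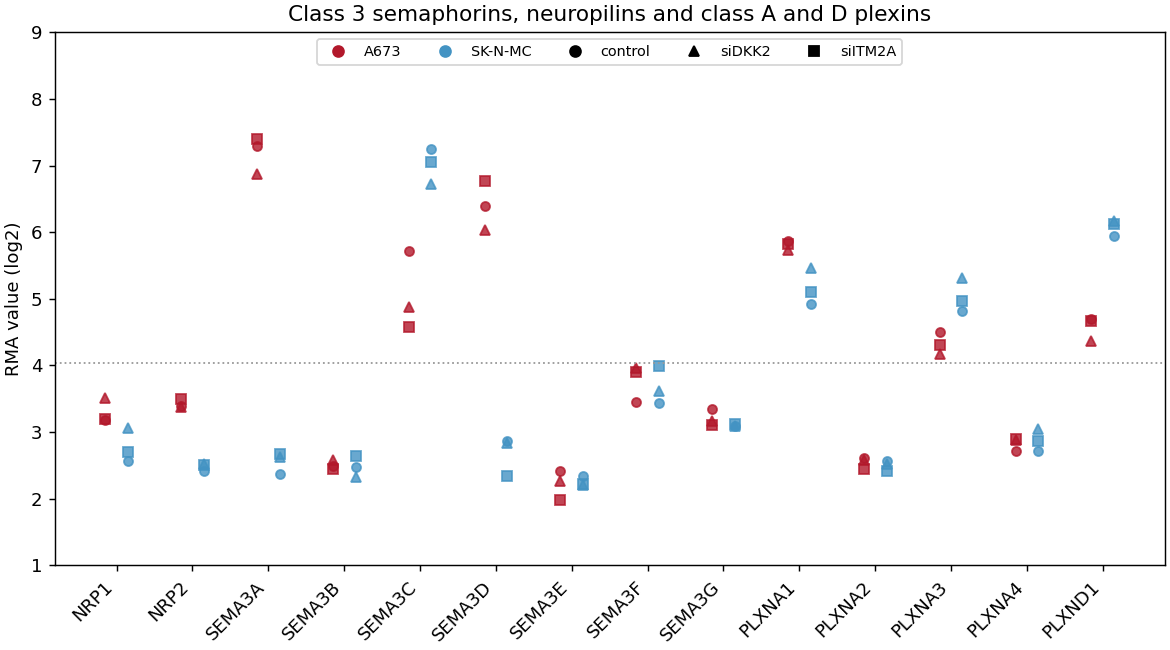
RMA values (log2) on each array of the class 3 semaphorins, the neuropilins and the class A and D plexins, red for A673 and blue for SK-N-MC, with the siRNA given by the marker shape; the dotted line is the median over all genes, 4.04. SEMA3A and SEMA3D separate the lines widely with A673 above, SEMA3C and PLXND1 with SK-N-MC above, and SEMA3B, SEMA3E, PLXNA2 and PLXNA4 overlap.

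Other genes of these pathways were read from lists chosen by function, with earlier results of these data known. The lists were not filtered by level, and the shares over all genes given beside them are not matched for level. In a fit of only the genes at or above the median level, 48.6% were called between the lines. Of 21 measured effectors of Eph and ephrin signalling, 6 were higher and 2 lower in A673 (38.1% called, against 28.5% of all genes, with a median difference of -0.03 against -0.02). Genes were named from each list by the size of the smallest of their 3 paired differences. The lower effectors of Eph and plexin signalling, and UNC5B, SLIT2, NTN3 and NTN4 below, were added after their values were seen. The kinase LYN, a SRC-family member, was 4.24-fold higher (2.09 ± 0.11, adjusted p = 4.44e-06), its relative YES1 2.80-fold (1.49 ± 0.12, adjusted p = 4.59e-05) and the exchange factor VAV2 2.15-fold (1.10 ± 0.11, adjusted p = 0.000105). ADAM10, the protease that sheds ephrins, was 1.73-fold higher (0.79 ± 0.11, adjusted p = 0.00092). The lower ones were the adaptor ANKS1A (-0.44, adjusted p = 0.0219) and SIPA1L1 (-0.38, adjusted p = 0.0253). Of 32 measured plexin effectors and co-receptors, 14 were higher and 4 lower (56.2% called, against 28.5%, and a median difference of 0.31 against -0.02). CRMP1, a collapsin response mediator in the SEMA3A pathway, read 6.71, 7.35 and 7.62 in A673 and 4.18, 3.78 and 3.97 in SK-N-MC, and was 9.52-fold higher in A673 (3.25 ± 0.20, adjusted p = 1.02e-05). ARHGEF12 was 4.59-fold higher (2.20 ± 0.10, adjusted p = 2.26e-06). RND3, a GTPase of a family that binds plexins, was 4.27-fold higher, and the adhesion molecule NRCAM 3.62-fold. The lower ones were the kinase CDK5 (-0.95, adjusted p = 0.00033), the adhesion molecule L1CAM (-0.94, adjusted p = 0.000353), the GTPase RHOA (-0.82, adjusted p = 0.000814) and the receptor ERBB2 (-0.77, adjusted p = 0.00146).

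Of 22 other guidance cues and receptors, 4 were higher and 4 lower (36.4% called, against 28.5% of all genes). The netrin receptor DCC read 7.11, 7.26 and 7.46 in A673 and 2.55, 2.39 and 2.22 in SK-N-MC, a 29.6-fold difference of the deposited values (4.89 ± 0.14, adjusted p = 2.22e-07), whose SK-N-MC side may likewise be background. NEO1, its relative, was 7.59-fold higher, against SK-N-MC values of 2.85 to 3.31, which may also hold background. NTNG1, a netrin-G, was 2.51-fold higher, and NTN4 differed by 0.55 (adjusted p = 0.00525). ROBO2, a receptor of SLIT proteins, read 5.60 to 5.82 in A673 and 7.50 to 7.78 in SK-N-MC and was 3.89-fold lower in A673 (-1.96 ± 0.12, adjusted p = 8.22e-06). Lower in A673 as well were UNC5B (-1.50, adjusted p = 0.000363), SLIT2 (-0.78, adjusted p = 0.00108) and NTN3 (-0.35, adjusted p = 0.0321).

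No guidance gene passed the threshold for either knock-down. With siDKK2 against control, 0 of 51 passed an adjusted p under 0.05 (limma, cell line as a block, 2 pairs of arrays), where 0.0109% of all genes did, and 8 (15.7%) had an unadjusted p under 0.05, against 8.68% of all genes. The lowest adjusted p was 0.355. No member reached 2-fold or 1.5-fold in both lines, against 0.0706% and 0.478% of all genes. The lines gave the same sign for 32 members (62.7%, against 54.8%), and the median difference was -0.04, against -0.02 over all genes. IFIT1, an interferon-induced gene, stood lower with siDKK2 than with control in each line, at 3.41 against 8.12 in A673 and 3.15 against 5.10 in SK-N-MC (adjusted p = 0.213); its part in the values below was not tested.

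Of the members with a constant sign, the 3 largest on each side, ordered by the smaller of the differences in the 2 lines, were as follows. SEMA5B differed by -0.51 in A673 and by -0.53 in SK-N-MC when DKK2 was targeted (-0.52 ± 0.14, adjusted p = 0.355), and SEMA3C by -0.84 and -0.52 (-0.68 ± 0.21, adjusted p = 0.435). EPHA2 differed by -0.33 and -0.60 (-0.46 ± 0.14, adjusted p = 0.417). On the other side, EFNB1 differed by 0.70 and 0.34 (0.52 ± 0.14, adjusted p = 0.389), SEMA4D, the ligand of PLXNB1, by 0.36 and 0.40 (0.38 ± 0.13, adjusted p = 0.475), and NRP1 by 0.33 and 0.51 (0.42 ± 0.13, adjusted p = 0.434). None of these 6 is a call, and each value is the difference of 2 arrays per line.

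With siITM2A against control, again 0 of 51 members passed (against 0.0109% of all genes), 5 (9.8%) had an unadjusted p under 0.05 (against 6.91%), and the lowest adjusted p was 0.623. No member reached 2-fold or 1.5-fold in both lines, against 0.0109% and 0.255% of all genes, and 27 (52.9%, against 51.9%) had the same sign in both. The median difference was -0.01, against -0.03 over all genes. These values use the same control arrays as those for siDKK2, so the sets are not separate and are given side by side only. EFNB1 differed by 0.76 in A673 and by 0.42 in SK-N-MC when ITM2A was targeted (0.59 ± 0.14, adjusted p = 0.623), SEMA5B by -0.37 and -0.64 (-0.50 ± 0.14, adjusted p = 0.67), and SEMA3C by -1.14 and -0.18 (-0.66 ± 0.21, adjusted p = 0.684). SEMA3F, a secreted semaphorin that acts through NRP2, differed by 0.45 and 0.56 (0.51 ± 0.15, adjusted p = 0.682). EPHA2 was at 0.18 in each line, and SEMA4G at -0.19 and -0.35.

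The difference between siDKK2 and siITM2A does not take in the control values, apart from the estimate of the spread. Of the 51 members 0 passed (against 0.0163% of all genes), with a lowest adjusted p of 0.283, and 7 (13.7%) had an unadjusted p under 0.05 (against 8.32%). No member reached 2-fold or 1.5-fold in both lines, against 0.0543% and 0.489% of all genes. The sign was the same in both lines for 19 members (37.3%), against 55% of all genes. EPHA2 had the lowest adjusted p, with differences of -0.52 for A673 and -0.78 for SK-N-MC (-0.65 ± 0.14, adjusted p = 0.283). EFNB2 differed by -0.36 and -0.29 (-0.33 ± 0.13, adjusted p = 0.566), and EPHA5 by -0.37 and -0.29 (-0.33 ± 0.14, adjusted p = 0.584). Higher with siDKK2 than with siITM2A, without passing, were SEMA6A (0.41 and 0.49), SEMA4G (0.40 and 0.46) and NRP1 (0.32 and 0.37). In the 3 pathway lists 0 genes passed in each of the 3 siRNA comparisons, and 0 to 6 of a list had an unadjusted p under 0.05; ADAM10 differed by -0.54 ± 0.14 with siDKK2 (adjusted p = 0.353).

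**Figure D4:**
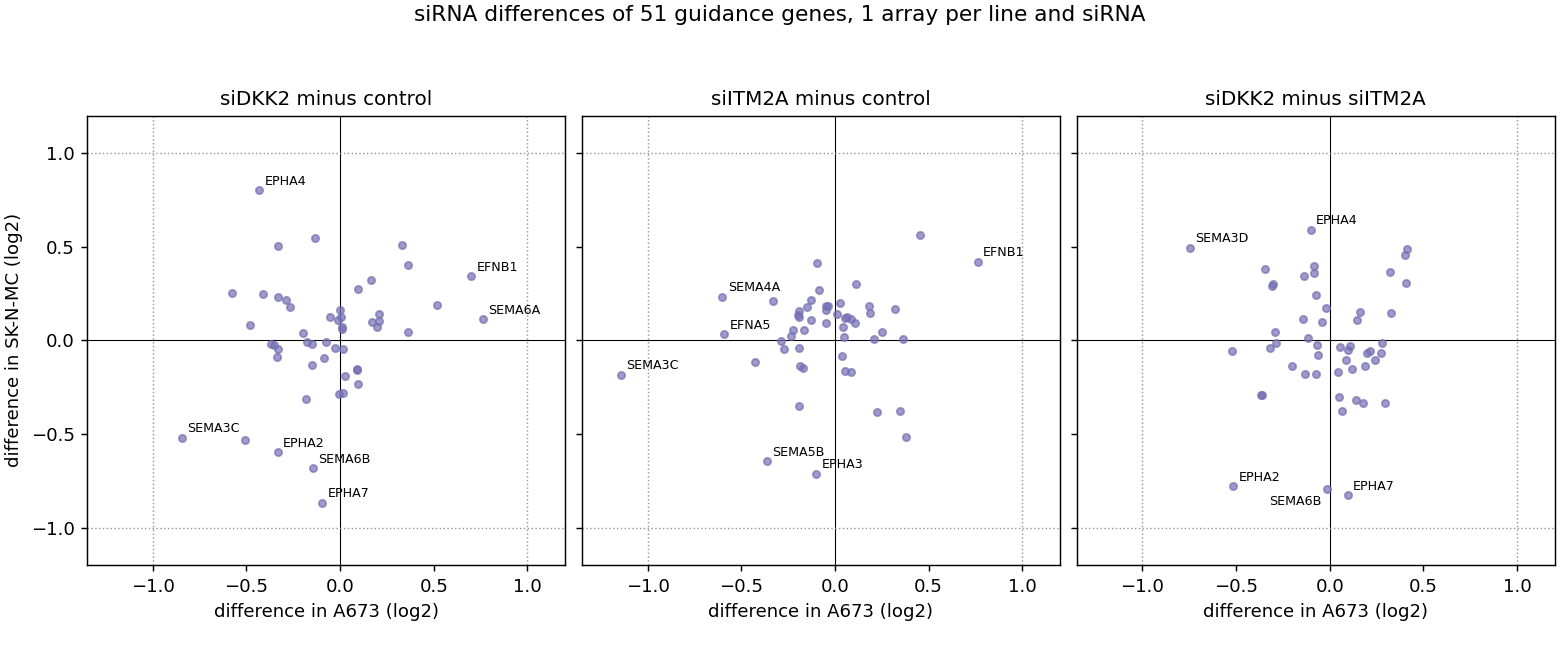
Difference by siRNA (log2) in A673 (horizontal axis) against that in SK-N-MC (vertical axis) for the 51 guidance genes, in 3 panels for siDKK2 minus control, siITM2A minus control and siDKK2 minus siITM2A; each point is a gene, from 1 array per line and siRNA, dotted lines mark 2-fold, and the most extreme genes are named. No gene lies beyond 2-fold in both lines, SEMA3C with siITM2A (-1.14 in A673) is the 1 point past a dotted line, and EPHA2 lies in the lower left of the left and right panels.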

How the data were processed

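Total RNA was labelled and hybridised by the authors, per the labels' protocols, to whole-transcript arrays. The deposited values are taken as log2 values per probe set, made by the authors with Affymetrix Expression Console and RMA, per the submitters' processing notes; the version, the settings and the build were not given in the sources used here. The log2 scale was read from the range of 1.02 to 13.4. RMA evens out the arrays' distributions and compresses differences between dim values. Of 33297 probe sets, 19460 had a single symbol, 1754 several and 12083 were not listed in the platform annotation used; 19429 matched a current Entrez gene, with 0 symbols changed. Keeping the probe set with the highest mean for the 769 genes with several left 18417 genes.

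All 6 arrays entered a limma 3.58.1 fit (lmFit, eBayes; R 4.3.3) with line and siRNA as terms (2 residual degrees of freedom, 8.28 after moderation), and p-values were adjusted over all genes with a threshold of 0.05. The fit was tested on simulated data. Members with calls were named with all values, up to 12 per comparison, ordered by the smallest difference over the pairs; where under 4 passed in a direction, the leading 3 are given as values only. The members, lists and tests were chosen with earlier results of these data known. Alternatives were the mean over or all of a gene's probe sets, an intensity trend, a level filter, repeated quantile normalization, centring, fewer arrays, no replicate block, a threshold of 0.1, 1.5-fold, and leaving out each array. Promoters came from RefSeq (GRCh38.p14). Protein sequences were not used here.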

Additional observations from a re-analysis of the deposited data

Results flagged for a closer look

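For 5 members a difference by siRNA of at least 0.32 on the log2 scale ran in opposite directions in the 2 lines. The share of all genes that did so was not counted, so whether 5 is many is not known. At any size, the lines gave the same sign for 54.8% of all genes with siDKK2 and 51.9% with siITM2A against control. Between siDKK2 and siITM2A it was 55%. With 1 array per line and siRNA the difference between the lines was not tested for any of the 5 members, and none of the values is a call. With siDKK2 against control, EPHA4 differed by -0.43 for A673 but 0.80 for SK-N-MC, and PLXNA3 by -0.33 and 0.50. With siITM2A against control, SEMA3D differed by 0.38 for A673 but -0.51 for SK-N-MC, and SEMA6A by 0.35 and -0.38. Between siDKK2 and siITM2A, PLXNB1 differed by -0.34 for A673 but 0.38 for SK-N-MC, and SEMA3D by -0.75 and 0.49. SEMA3D read 2.35 to 2.86 on the SK-N-MC arrays. The 3 comparisons share arrays, so the SEMA3D values are not separate results.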

How the results depend on the processing

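The count of 22 members called between the lines was 17 to 23 over its alternatives: 22 with the mean over a gene's probe sets, with all probe sets or with repeated quantile normalization, 21 with an intensity trend or with centring, 19 with only genes at or above the median level (NRP1, NRP2 and SEMA4G are then not tested), 17 without siITM2A, 17 to 22 without each array, and 23 at an adjusted p under 0.1. Without the replicate block, that is without the pairing of arrays by siRNA, it was 21. In the siRNA comparisons the block left out is the cell line, and 0 members were called in each. The differences between the lines then enter the spread, so this 0 is little of a check. The share of all genes called between the lines, 28.5% in the main fit, moved as well. It was 48.6% with the level filter, which leaves 24 members, and 20.2% without siITM2A. It was 20.2% to 24.9% without each array, 26.3% without the block and 34.1% at an adjusted p under 0.1. The number of members past 2-fold between the lines went from 8 to 13 at 1.5-fold, by construction. The median member difference between the lines, -0.02, was -0.47 among members at or above the median level and -0.05 to 0.05 without each array. With siDKK2 the median of -0.04 was -0.06 to 0.06 without each array; with siDKK2 against siITM2A the median of -0.01 was 0.01 with repeated quantile normalization, 0.02 with centring and -0.03 to 0.02 without each array. Apart from -0.47, which leaves out 27 members by their level, these medians lie near 0 and give no direction. The siITM2A count past 2-fold was 0 to 1 without each array: without the SK-N-MC control or siITM2A array it rests on A673, where SEMA3C passes. The siRNA counts of calls stayed at 0 under all alternatives run. Of 585 alternatives for single genes, 24 lost a call (those of EFNA1, EPHB4, PLXNA1, PLXNA3 and SEMA4G) and 0 reversed. The other 561 kept direction and, where a fit was made, side of the threshold. They include many siRNA values that were not calls, and the opposite-sign values above. Those opposite-sign values were not tested and moved by no more than their SD over the lines. That SD comes from the 2 opposite values themselves, so the limit is wide. What this check shows is that no sign changed. Leaving out 1 array removes its pair from the line comparison, so both arrays of a siRNA give the same value. For siITM2A that value is also the one from the fit without siITM2A, so the 585 alternatives are not separate checks. Only EPHA10, NRP2 and SEMA4D had more than 1 probe set. For all other members both probe set alternatives keep the main values, so they could hardly move the counts. Signal over background was not measured, which limits what low values can show.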
